A study of Rattus norvegicus with 4 samples.

Results

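The levels of 9 genes of blood vessel growth and of the endothelium, the cell layer that lines vessels, were followed in rat lens capsules after lens removal. The genes were taken by their platform gene symbol: the secreted ligands *Vegfa*, *Vegfc* and *Angpt2*, the receptors *Flt1*, *Kdr* and *Tek*, the co-receptor *Nrp1*, and *Pecam1* and *Vwf*, which mark endothelial cells. They were read by 14 probe sets among 31042 (9 genes of 14217 with a symbol of their own), and a probe set is a group of short probes that together measure the transcripts of a gene. The samples were lens capsules with lens epithelial cells (LECs) from the right eyes of female albino Sprague Dawley rats, in which the lens had been removed by extracapsular lens extraction (ECLE) at 7 weeks of age. The groups were day 0 (control, 1 array, age 7 weeks), 1 W after ECLE (day 7, 2 arrays labeled biological replicates, age 8 weeks) and 2 W after ECLE (day 14, 1 array, age 9 weeks). The label of the control gives only day 0, which the methods of the study place after the end of surgery. No array of eyes without surgery was analysed here. The methods of the study name a larger number of samples for each group than there are arrays here, and how many eyes each array holds is not stated in the sources used here.

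The vascular endothelial growth factors are secreted proteins that bind receptor tyrosine kinases on endothelial cells. VEGF-A, the product of *Vegfa*, binds VEGFR-1 (*Flt1*) and VEGFR-2 (*Kdr*), VEGF-C (*Vegfc*) acts mainly on lymphatic endothelium through VEGFR-3, and neuropilin 1 (*Nrp1*) is a co-receptor for VEGF-A and a receptor for class 3 semaphorins. Angiopoietin 2 (*Angpt2*) modulates the receptor TIE2 (*Tek*), which keeps vessels quiescent when angiopoietin 1 binds it. The adult lens holds no vessels, and lens epithelium itself makes VEGF-A, while the iris, ciliary body, choroid and retina beside it are vascular.

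Promoter windows are printed for the genes whose probe sets had the lowest p-values at 1 W (*Nrp1*, *Vegfa* and *Vegfc*) and for *Kdr*, whose probe sets differed in direction. They are from RefSeq assembly GRCr8, 5′ to 3′, in the 250 bases before the annotated start, and the window of *Kdr* is shown up to the base where the annotated gene begins (218 bases). Capitals mark GGAA, the core of sites for ETS factors, and GGGCGG, the GC box, on either strand (TTCC and CCGCCC on the opposite one), and no match of one overlapped a match of the other.
Vegfa promoter, chr9:22452604-22452853, + strand: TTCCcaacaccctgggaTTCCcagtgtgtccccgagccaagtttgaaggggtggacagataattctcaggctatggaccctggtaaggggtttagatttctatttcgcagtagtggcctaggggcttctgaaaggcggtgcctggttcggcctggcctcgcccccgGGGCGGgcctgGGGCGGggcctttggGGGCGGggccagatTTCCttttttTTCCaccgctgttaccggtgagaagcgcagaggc
Nrp1 promoter, chr19:73256307-73256556, + strand: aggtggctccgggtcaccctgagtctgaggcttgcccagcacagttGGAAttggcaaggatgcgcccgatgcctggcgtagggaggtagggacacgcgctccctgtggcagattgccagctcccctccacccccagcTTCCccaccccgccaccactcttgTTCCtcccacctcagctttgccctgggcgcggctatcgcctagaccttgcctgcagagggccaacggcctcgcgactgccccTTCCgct
Vegfc promoter, chr16:44560888-44561137, - strand: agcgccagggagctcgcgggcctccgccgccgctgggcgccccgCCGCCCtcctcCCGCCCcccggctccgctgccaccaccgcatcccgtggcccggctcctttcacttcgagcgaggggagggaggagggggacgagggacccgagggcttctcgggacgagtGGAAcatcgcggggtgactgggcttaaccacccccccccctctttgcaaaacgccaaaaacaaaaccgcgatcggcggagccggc
Kdr promoter, chr14:32571813-32572030, + strand: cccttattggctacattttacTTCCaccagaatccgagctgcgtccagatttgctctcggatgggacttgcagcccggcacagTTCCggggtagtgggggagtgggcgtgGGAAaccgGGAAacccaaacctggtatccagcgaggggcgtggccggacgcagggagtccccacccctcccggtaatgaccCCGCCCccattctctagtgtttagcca
GGAA occurred 4 times in the window of *Vegfa*, 4 times in that of *Nrp1*, 1 time in that of *Vegfc* and 4 times in that of *Kdr*, and 93.2% of 33469 RefSeq promoter windows of the same length held it. The GC box occurred 3 times in the window of *Vegfa*, 2 times in that of *Vegfc*, 1 time in that of *Kdr* and 0 times in that of *Nrp1*, against 30.5% of all windows with at least 1 match. ACGTG on either strand, a form of the hypoxia response element core, was in 16.6% of all windows and in 0 of these 4. That says only that these letters are not in the bases searched, and the form GCGTG was not counted. TATAAA on the strand of the gene was in 8.06% of all windows and in 0 of these 4. The window listed for *Flt1* lay inside its annotated gene and held 3 matches of GGAA, 3 of the GC box and 1 of TATAAA, and it is not printed. A second window listed for *Vegfa* also lay inside its annotated gene and is not printed. It held 2 matches of GGAA and 0 of the GC box.

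The mean intensity of the arrays was 244.3 at day 0, then 217.6 and 210.0 at 1 W, and 165.0 at 2 W, so the values of an array were scaled by that mean before a ratio was taken, and a ratio here is a level after ECLE over the level at day 0. Over the 18625 probe sets bright enough to be tested the median log2 ratio to day 0 was -0.09 and -0.06 on the arrays of 1 W replicates 1 and 2 and -0.26 on the array of 2 W, and the ratios below are to be read against these shifts. The 11 lens epithelium markers examined (among them *Pax6*, *Foxe3*, *Cryaa* and *Cdh1*) had intensities of at least 360.9 on each array. That minimum does not measure the share of lens cells. Of the 11, 2 were above day 0 on all 3 arrays after ECLE and 5 were below (4 and 2 with division by the array median). The ratio of *Cdh1* was 0.493 and 0.422 at 1 W and 0.270 at 2 W. At 2 W it was 0.363 for *Foxe3*, 0.508 for *Pax6* and 1.62 for *Cryaa*. Markers of other ocular cells were present too and differed between arrays. The summed level of 12 photoreceptor genes was 13260 at day 0, then 1333 and 5633 at 1 W, and 1767 at 2 W, and that of 7 pigment cell genes was 2307, 14160, 5078 and 7791 on the same arrays. Of the 3 red blood cell genes measured, the level summed to 463.8 at day 0, then 148.3 and 184.2 at 1 W, and 237.9 at 2 W. That sum was mostly *Hbb* (ratio 0.245 and 0.319 at 1 W and 0.3765 at 2 W). The dim *Slc4a1* had ratios of 2.03, 2.80 and 7.15 on the same arrays, and the dim *Alas2* had 1.77, 1.52 and 0.968. The 6 platelet genes measured summed to 119.8 at day 0, then 166.7 and 94.43 at 1 W, and 120.0 at 2 W. The 3′ to 5′ signal ratio of *Actb*, a measure of how complete the labeled transcripts are, was 2.32 at day 0, then 1.89 and 1.91 at 1 W, and 1.61 at 2 W. That of *Gapdh* differed less, with 1.159 at day 0, then 1.117 and 1.184 at 1 W, and 1.098 at 2 W. The part of these values in the results below was not tested.

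No member passed the test at any time. Of the 14 probe sets, 10 (8 genes) had a mean level of at least the 40th percentile and were tested with limma, with Benjamini-Hochberg adjustment over all 18625 probe sets and a threshold of 0.05, and the other 4 (the probe set of *Pecam1*, 2 of *Flt1* and 1 of *Kdr*) were too dim. limma called 0 of the 10 at 1 W over day 0, 0 at 2 W over day 0 and 0 at 2 W over 1 W, where it called 0.0483%, 0.0483% and 0% of all tested probe sets. The replicates at 1 W gave the only spread, with 1 residual degree of freedom, and the arrays of day 0 and 2 W were assumed to vary like them. In bulk RNA of this kind, fewer cells of a type and less RNA per cell cannot be told apart. At an unadjusted p under 0.05, 3 probe sets of members were higher at 1 W (2 of *Nrp1* and that of *Vegfc*) and 2 were lower (both of *Vegfa*), against 8.21% higher and 9.66% lower among all tested probe sets. At 2 W, 1 was higher (*Nrp1*) and 2 were lower (*Angpt2* and *Vegfa*), against 9.01% and 21.9%. At 2 W over 1 W, 0 were higher and 1 was lower (*Angpt2*), against 5.5% and 16.4%.

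By gene, read from its brightest probe set, 6 of the 9 members (*Vegfc*, *Flt1*, *Nrp1*, *Tek*, *Pecam1* and *Vwf*) were above day 0 on all 3 arrays after ECLE and 3 (*Vegfa*, *Angpt2* and *Kdr*) were below it on all 3, where 26.5% of all 14217 genes were above and 33.4% were below; with median or quantile scaling the same 6 were above and 3 below, and in the intensities as deposited 3 were above (*Nrp1*, *Pecam1* and *Vwf*), since *Vegfc* and *Tek* were then below day 0 at 2 W and *Flt1* in replicate 2. The median log2 ratio of the 9 genes was 0.88 and 0.44 on the arrays of 1 W replicates 1 and 2 and 0.52 on the array of 2 W, beside -0.04, 0.01 and -0.16 over all genes. A ratio over 2.0 at 1 W was found for 1 of the 10 tested probe sets (*Nrp1*) and at 2 W for 1 (*Vwf*), against 4.24% and 5.88% of all tested probe sets. A ratio under 0.5 was found for 0 at 1 W and for 1 at 2 W (*Angpt2*), against 4.99% and 14.4%. On each of the 3 arrays after ECLE alone, 0 of the 10 were over 2.0-fold and 0 were under 0.5-fold (2.05% and 2.08% of all tested probe sets). With the dim ones, 2 of 14 were over 2.0-fold on each array (those of *Pecam1* and the dim one of *Kdr*) and 0 were under 0.5-fold, against 4.32% and 3.63% of all 31042.

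**Figure D1:**
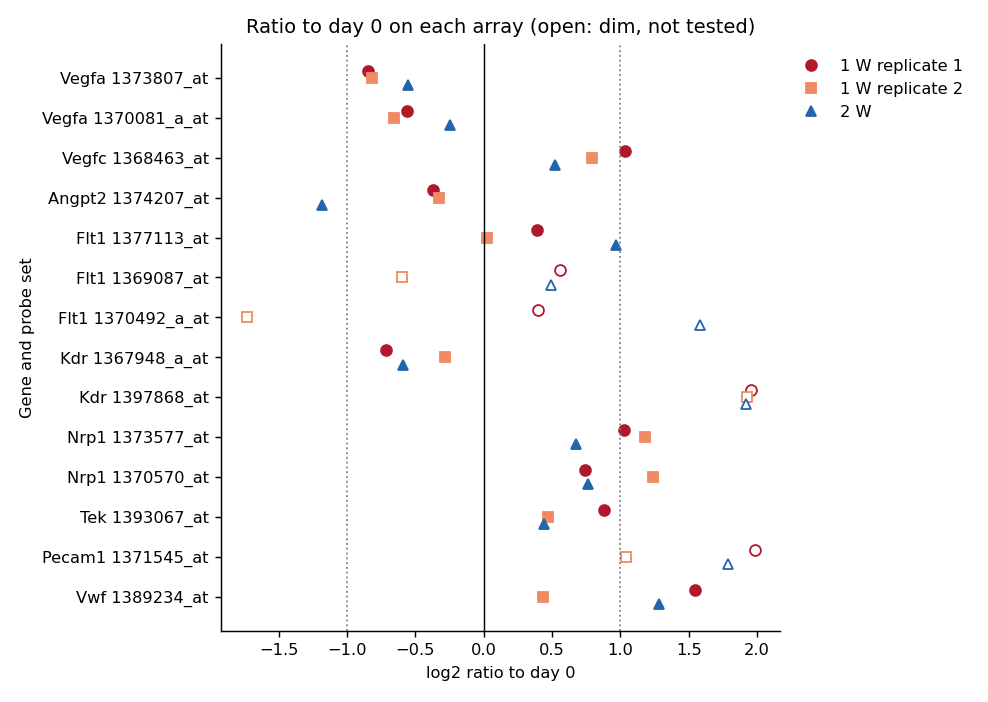
Log2 ratio to day 0 of each of the 14 probe sets (rows) on the 2 arrays at 1 W (circles and squares) and the array at 2 W (triangles), after division of each array by its mean; open symbols are probe sets too dim to be tested and dotted lines mark 2.0-fold and 0.5-fold. The symbols of *Vegfa*, *Angpt2* and the brighter *Kdr* probe set lie left of 0, those of *Vegfc*, *Nrp1*, *Tek*, *Pecam1* and *Vwf* lie right of it (without scaling *Vegfc* and *Tek* at 2 W would lie left of it), and the 2 *Kdr* probe sets lie on opposite sides.

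Among the ligands, the *Vegfa* transcript was lower on each array after ECLE. *Vegfa* is read by 2 probe sets. The brighter, 1373807_at, had an intensity of 593.2 at day 0, then 294.6 and 289.2 in 1 W replicates 1 and 2, and 272.9 at 2 W. The values at 1 W nearly coincided, and all 3 values after ECLE lay under that of day 0. Its ratio was 0.558 and 0.567 in the replicates and 0.681 at 2 W. In the limma fit its log2 ratio was -0.83 at 1 W (SE 0.15, 95% interval -1.24 to -0.42, adjusted p = 0.147) and -0.55 at 2 W (SE 0.17, interval -1.03 to -0.08, adjusted p = 0.129). The other probe set, 1370081_a_at, had 252.4 at day 0, then 152.2 and 137.5 at 1 W, and 143.6 at 2 W. It ordered the groups in the same way, with smaller differences: its log2 ratio was -0.61 at 1 W (SE 0.18, limma adjusted p = 0.231) and -0.25 at 2 W (SE 0.21, adjusted p = 0.472), the value at 2 W being no lower than the median of all tested probe sets. Between 2 W and 1 W the probe sets had log2 differences of 0.28 and 0.36 (limma adjusted p = 0.344 and 0.322), and without scaling that of the brighter one was -0.10. Without scaling the brighter probe set also passed the threshold at 2 W (log2 ratio -1.12, limma adjusted p = 0.0145).

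*Vegfc*, the lymphatic growth factor, was higher at 1 W. Its probe set read 67.94 at day 0, then 123.9 and 101.1 at 1 W, and 65.77 at 2 W. The arrays at 1 W stood above those of day 0 and 2 W before scaling. After scaling, its ratio was 2.05 and 1.73 at 1 W and 1.43 at 2 W, so that 1 replicate passed the 2.0-fold mark and the other did not. The log2 ratio in limma was 0.91 at 1 W (SE 0.25, interval 0.23 to 1.60, adjusted p = 0.214) and 0.52 at 2 W (SE 0.29, interval -0.27 to 1.31, adjusted p = 0.291). At 2 W the sign rested on the scaling, since the log2 ratio was -0.05 without it.

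*Angpt2* had its lowest level at 2 W. Its intensity was 112.5 at day 0, then 77.43 and 77.24 at 1 W, and 33.45 at 2 W. The replicates at 1 W differed by 0.05 log2 units, and the value at 2 W stood apart from all others. Its ratio was 0.773 and 0.799 at 1 W and 0.440 at 2 W, which was the only tested member ratio under 0.5. limma gave a log2 ratio of -0.35 at 1 W (SE 0.25, adjusted p = 0.502), -1.18 at 2 W (SE 0.29, interval -1.98 to -0.38, adjusted p = 0.0943) and -0.84 at 2 W over 1 W (SE 0.25, adjusted p = 0.192). Without scaling the 2 W ratio passed the threshold (log2 ratio -1.75, limma adjusted p = 0.0152), a setting under which the median of all tested probe sets was -0.83.

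**Figure D2:**
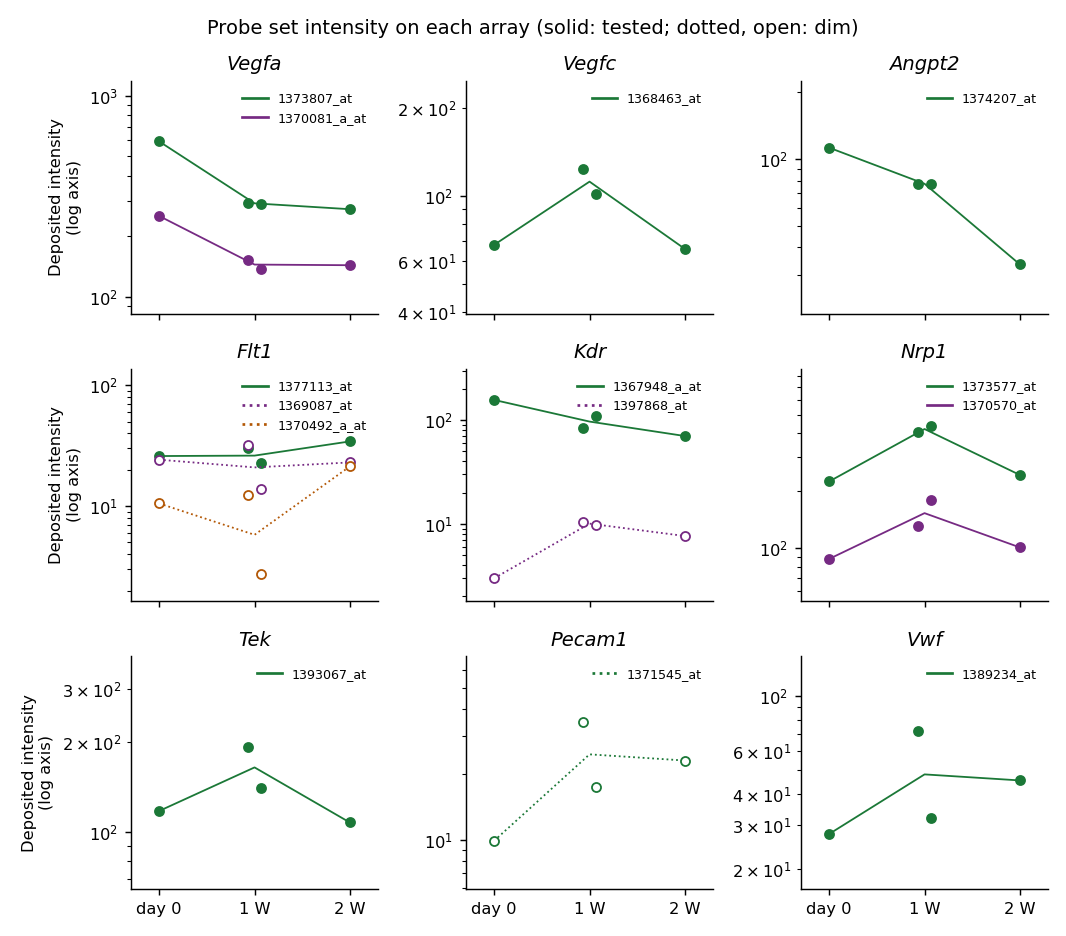
Deposited intensity (log axis, unscaled) of each probe set of the 9 genes at day 0, 1 W (2 arrays, offset sideways) and 2 W, with lines through the mean of the log values at each time; filled points are tested and open points too dim. *Vegfa* and *Angpt2* have their highest point at day 0, *Nrp1* and *Vegfc* have theirs at 1 W, and the 2 arrays at 1 W lie far apart for *Vwf*, *Pecam1* and the dim *Flt1* probe sets; levels of different probe sets are not to be compared.

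Of the receptors, *Nrp1* was higher after ECLE on both of its probe sets. It is expressed outside the endothelium too, among others by neurons, smooth muscle and immune cells. Probe set 1373577_at had an intensity of 224.1 at day 0, then 407.4 and 436.5 at 1 W, and 242.3 at 2 W. Probe set 1370570_at had 88.02 at day 0, then 130.9 and 178.5 at 1 W, and 101.1 at 2 W. Before scaling, both stood highest on the 2 arrays at 1 W, with the array of 2 W between these and day 0. The ratios of 1373577_at were 2.04 and 2.27 at 1 W and 1.60 at 2 W, and those of 1370570_at were 1.67 and 2.36 at 1 W and 1.70 at 2 W. limma gave 1373577_at a log2 ratio of 1.10 at 1 W (SE 0.16, interval 0.65 to 1.56, adjusted p = 0.132) and 0.68 at 2 W (SE 0.19, interval 0.16 to 1.20, adjusted p = 0.112). The second probe set had 0.99 at 1 W (SE 0.29, limma adjusted p = 0.227) and 0.77 at 2 W (SE 0.34, adjusted p = 0.212). Its call depended on the scaling: divided by array medians, *Nrp1* passed at 1 W (log2 ratio 1.23, limma adjusted p = 0.0313) and at 2 W (0.95, adjusted p = 0.0493), where the fit called 406 and 1631 probe sets in all.

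*Kdr*, the main signaling receptor of VEGF-A on endothelium, was read by 2 probe sets that differed in direction. The brighter, 1367948_a_at, had an intensity of 156.1 at day 0, then 84.66 and 110.2 at 1 W, and 70.08 at 2 W. All 3 values after ECLE were lower than at day 0, and the replicates at 1 W differed by 0.43 log2 units, near the size of the difference from day 0. Its ratio was 0.609 and 0.822 at 1 W and 0.665 at 2 W, with a log2 ratio in limma of -0.50 at 1 W (SE 0.28, interval -1.27 to 0.27, adjusted p = 0.408) and -0.59 at 2 W (SE 0.33, interval -1.48 to 0.30, adjusted p = 0.290). The dim probe set, 1397868_at, had 2.986 at day 0, then 10.30 and 9.766 at 1 W, and 7.618 at 2 W. Its ratios of 3.87, 3.81 and 3.78 were alike on the 3 arrays. Its level was at the 9.08th percentile of its array at day 0 and between the 20.7th and 23.9th after ECLE, where the replicates of probe sets of like level differed by a median of 1.20 log2 units. When all probe sets of the gene were averaged, the log2 ratio of *Kdr* was 0.72 for 1 W and 0.66 for 2 W, so its direction depended on which probe sets were read. Without scaling, the brighter probe set passed at 2 W (log2 ratio -1.16, limma adjusted p = 0.0360).

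*Flt1*, the receptor that binds VEGF-A and placental growth factor, was read at no more than the 51.6th percentile of any array. The tested probe set, 1377113_at, had an intensity of 25.97 at day 0, then 30.26 and 22.66 at 1 W, and 34.32 at 2 W. The 2 W value was the highest, and the replicates at 1 W lay on either side of day 0 before scaling. Its ratio was 1.31 and 1.02 at 1 W and 1.96 at 2 W, with a log2 ratio of 0.20 at 1 W (SE 0.45, limma adjusted p = 0.824) and 0.97 at 2 W (SE 0.52, interval -0.45 to 2.39, adjusted p = 0.278). The dim probe set 1369087_at had 24.22 at day 0, then 31.83 and 13.74 at 1 W, and 22.99 at 2 W, and 1370492_a_at had 10.51, 12.32, 2.717 and 21.31. Neither had 1 direction over the arrays, and their replicates at 1 W differed by 1.16 and 2.13 log2 units. The average over the 3 probe sets turned the 1 W log2 ratio to -0.16.

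*Tek*, the receptor of the angiopoietins, had an intensity of 117.7 at day 0, then 193.2 and 140.1 at 1 W, and 107.7 at 2 W. The arrays at 1 W stood above the others and differed from each other by 0.41 log2 units. The ratio was 1.84 and 1.39 at 1 W and 1.36 at 2 W. In limma the log2 ratio was 0.68 at 1 W (SE 0.26, interval -0.04 to 1.39, adjusted p = 0.292) and 0.44 at 2 W (SE 0.30, interval -0.38 to 1.26, adjusted p = 0.374), and without scaling it was -0.13 at 2 W.

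**Figure D3:**
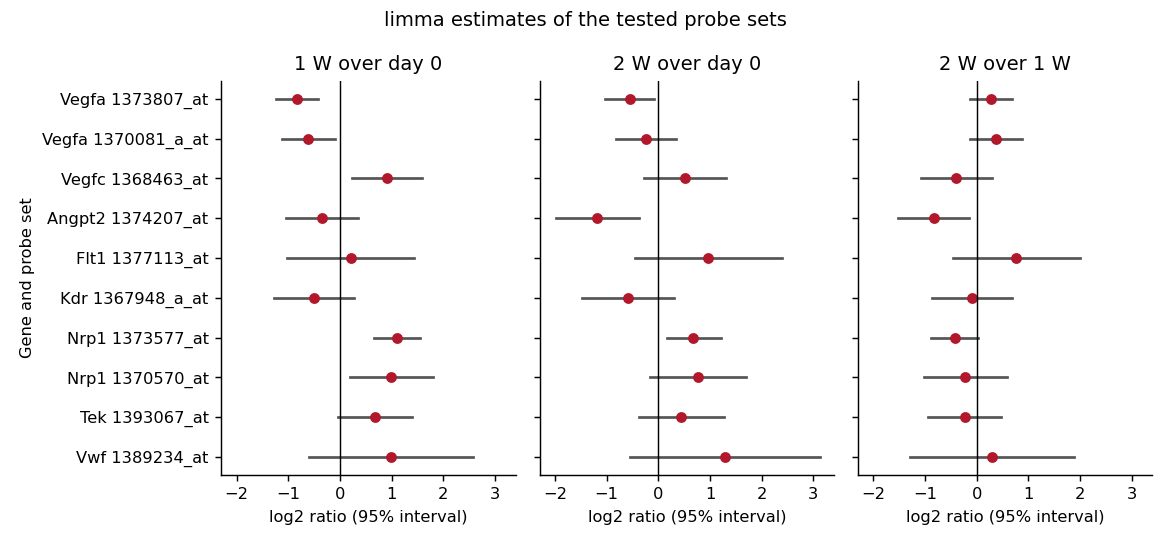
limma log2 ratios (points) with 95% intervals (bars) of the 10 tested probe sets for 1 W over day 0, 2 W over day 0 and 2 W over 1 W. The intervals of both *Vegfa* probe sets, *Vegfc* and both *Nrp1* probe sets leave out 0 at 1 W, those of *Vegfa* 1373807_at, *Angpt2* and *Nrp1* 1373577_at leave it out at 2 W and that of *Angpt2* at 2 W over 1 W, the intervals of *Vwf* and *Flt1* are the widest, and no adjusted p was under 0.05.

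The endothelial markers proper had levels that differed between the replicates at 1 W. *Vwf* encodes von Willebrand factor, the clotting protein that endothelial cells and megakaryocytes store. Its intensity was 27.68 at day 0, then 72.05 and 32.16 at 1 W, and 45.51 at 2 W. That was the 36.19th percentile of the array at day 0, the 58.44th and 42.92nd at 1 W, and the 57.25th at 2 W. Replicate 1 and the array of 2 W stood above replicate 2 and day 0. Its ratio was 2.92 and 1.35 at 1 W and 2.44 at 2 W, and the replicate difference of 1.11 log2 units was larger than the 1 W log2 ratio of 0.99 (SE 0.58, interval -0.60 to 2.58, limma adjusted p = 0.420). For 2 W it was 1.28 (SE 0.67, interval -0.55 to 3.12, limma adjusted p = 0.269). Without replicate 2, *Vwf* was over 2.0-fold on each array left.

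*Pecam1*, which encodes the adhesion protein CD31 of endothelial junctions, leukocytes and platelets, was too dim to be tested. Its intensity was 9.892 at day 0, then 34.80 and 17.49 at 1 W, and 23.11 at 2 W. All 3 values after ECLE were higher, with ratios of 3.95 and 2.06 at 1 W and 3.46 at 2 W. Its level was at the 19.2nd percentile of the array at day 0 and between the 30.8th and 45.4th after ECLE, and with low values raised to the 20th percentile of each array it was no longer over 2.0-fold on each. The replicates at 1 W differed by 0.94 log2 units, against a median of 0.52 for probe sets of like level. The macrophage markers, cells which also carry CD31, were higher on the same arrays: 14 measured genes summed to a level of 517.6 at day 0, then 3686 and 2818 at 1 W, and 2039 at 2 W, and 11 of them were over 2.0-fold on each array. Their part in the *Pecam1* result was not tested.

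The other genes of the endothelium were read beside the members. Of 27 further endothelial genes, 24 had a probe set of their own symbol and 15 were tested (*Cdh5*, *Robo4* and *Cd34* had none). limma called 0 of them at either time. Of the 24, 12 were above day 0 on all 3 arrays and 4 were below, against 26.5% and 33.4% of all genes. In the values as deposited 11 were above and 5 below. These counts include genes too dim to be tested. The 24 had a median log2 ratio of 1.43 and 0.34 in 1 W replicates 1 and 2 and 0.83 at 2 W (-0.04, 0.01 and -0.16 over all genes). The summed level was 1046 at day 0, then 1598 and 766.5 at 1 W, and 1193 at 2 W. By that sum replicate 1 and the array of 2 W were above day 0 and replicate 2 was below it. The sum weighs bright genes most, and the 4 brightest at day 0 (*Podxl*, *Esam*, *Plvap* and *S1pr1*) were the 4 below day 0 on each array. By count, 14 of the 24 genes were above day 0 in replicate 2. *Podxl*, which encodes podocalyxin, a sialomucin on the luminal face of vessels and on some epithelia, was the only tested one past a fold mark on each array. Its intensity was 327.5 at day 0, then 131.7 and 122.3 at 1 W, and 86.16 at 2 W, with a log2 ratio of -1.18 for 1 W and -1.36 for 2 W (limma adjusted p = 0.139 and 0.0646). *Eng*, which encodes the transforming growth factor β co-receptor endoglin, was the only one over 2.0-fold on each array and was too dim to be tested, and it was chosen after its values were seen. Its intensity was 5.493 at day 0, then 81.30 and 11.51 at 1 W, and 38.30 at 2 W.

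**Figure D4:**
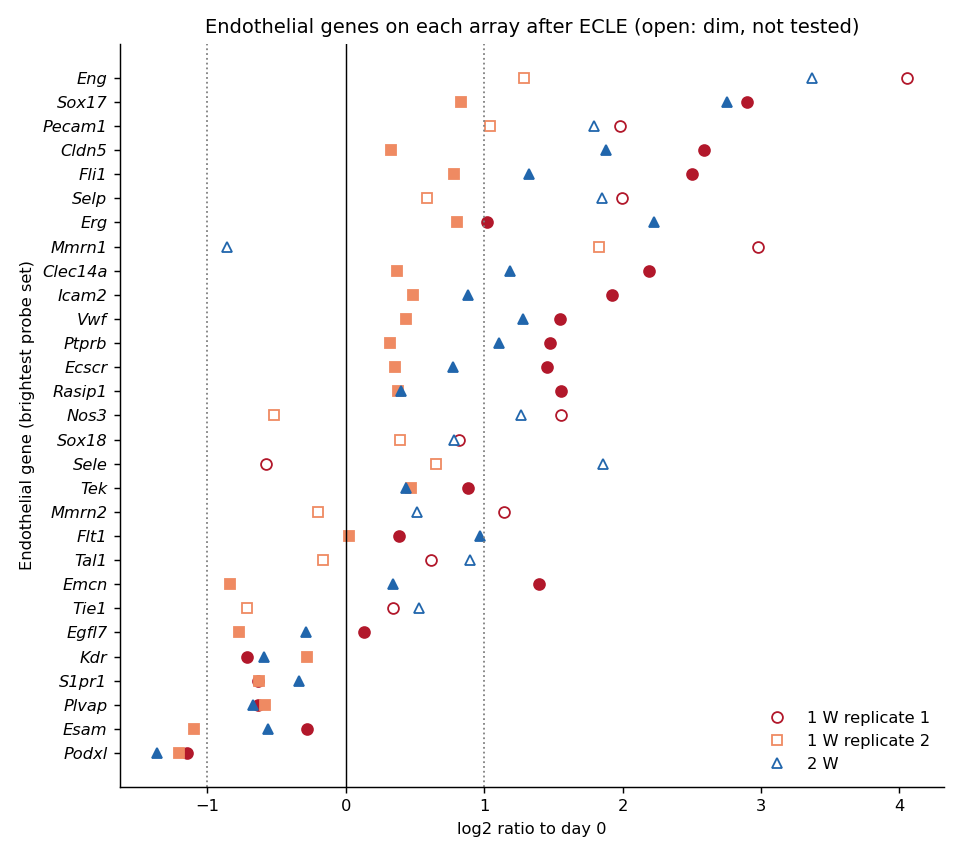
Log2 ratio to day 0 of the 29 endothelial genes measured, members included, by brightest probe set, on the 2 arrays at 1 W (circles and squares) and the array at 2 W (triangles); open symbols in the plot are genes too dim to be tested and dotted lines mark 2.0-fold and 0.5-fold. Most circles lie far to the right of the squares, and *Kdr*, *S1pr1*, *Plvap*, *Esam* and *Podxl* lie left of 0 on each array (4 of the 24 genes other than members did, and 4 with median or quantile scaling).

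The replicates at 1 W differed in the endothelial genes. Replicate 1 was higher than replicate 2 for 21 of the 24 other endothelial genes, with a median difference of 1.15 log2 units, while over all genes it was higher for 46.4%, with a median difference of -0.03. It was higher for 5 of the 9 members, by a median of 0.24. Within the members the difference was largest for *Vwf* (1.11) and *Pecam1* (0.94), followed by *Tek* (0.41), *Flt1* (0.37) and *Vegfc* (0.24), while *Vegfa*, *Angpt2*, *Nrp1* and *Kdr* were between -0.03 and -0.43. The pericyte, smooth muscle, pigment cell and macrophage lists differed in the same direction. The smooth muscle list is not specific to vessels, since it holds *Acta2* and *Tpm2*, which the study relates to epithelial-mesenchymal transition of LECs. Replicate 1 was higher for 5 of 7 pericyte genes (median difference 1.74), 8 of 8 smooth muscle genes (2.22) and 7 of 7 pigment cell genes (1.75), and it was lower for 12 of 12 photoreceptor genes (-2.33). The pericyte genes summed to a level of 267.5 at day 0, then 618.8 and 258.3 at 1 W, and 464.4 at 2 W, and the smooth muscle genes summed to 350.5, 4114, 1901 and 1834. Among these *Tagln*, which encodes the actin-binding protein transgelin, rose at 1 W by limma (log2 ratio 5.94, adjusted p = 0.0297, and 0.0002051 to 0.2955 over 9 other settings, of which limma without the intensity trend lost the call). At 2 W its log2 ratio was 4.75, at the threshold (limma adjusted p = 0.04999, and 0.0005945 to 0.1486 over the same settings, 3 of which called it). In 1 W replicates 1 and 2 the log2 ratio of *Tagln* was 6.08 and 5.79, a smaller gap than the median of its list. Replicate 1 was also higher for 13 of 14 macrophage genes, by a smaller median of 0.36. Lens epithelium genes differed by a median of 0.13. The part of these cells in the values of *Vwf*, *Pecam1* and *Tek* was not tested.

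**Figure D5:**
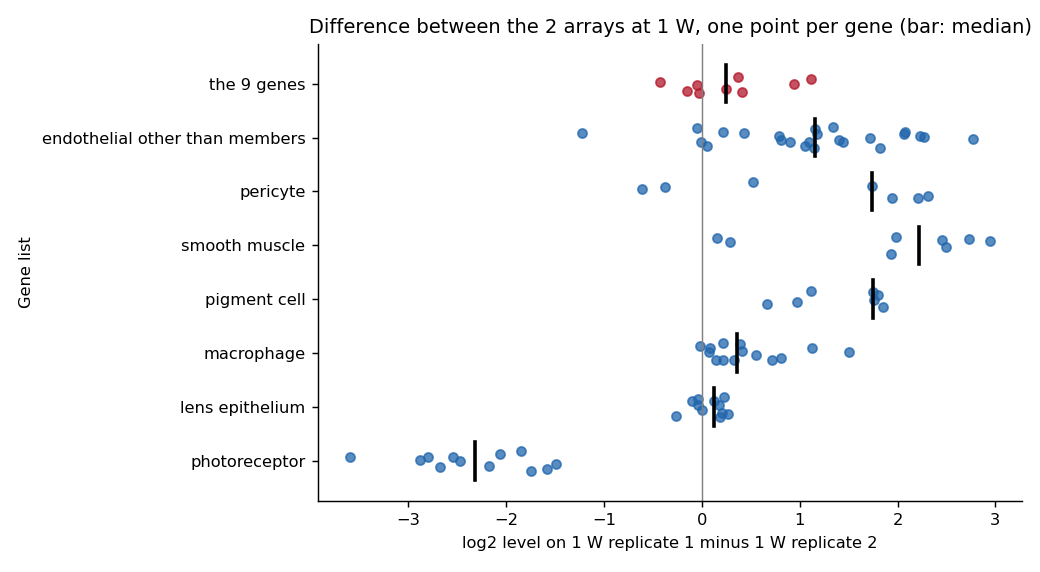
Log2 level on 1 W replicate 1 minus replicate 2 for each gene (points) of the 9 members and of 7 marker lists, with the median of each list as a bar. The members lie on both sides of 0 (median 0.24), lens epithelium genes cluster near 0, and photoreceptor genes lie left of it. Most endothelial, pericyte, smooth muscle, pigment cell and macrophage genes lie right of it, the macrophage genes by a smaller median (0.36).

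Other genes of the VEGF and angiopoietin pathway had no shared direction. Of 22 symbols listed (1 of them an older symbol of *Vegfd*, and in all further ligands, receptors, semaphorins, signaling proteins and the oxygen sensing factors), 21 were measured and 15 tested, and limma called 0 at any time. An unadjusted p under 0.05 was found at 1 W for 2 with a higher and 2 with a lower level, and at 2 W for 3 with a higher and 5 with a lower level, out of 15, while among all tested probe sets the shares were 8.21% higher with 9.66% lower at 1 W, and 9.01% higher with 21.9% lower at 2 W. Their median log2 ratio was 0.24 in replicate 1, 0.00 in replicate 2 and -0.27 at 2 W, and the median at 2 W was 0.01 with division by the array median. *Hif1a* encodes the oxygen-regulated subunit of hypoxia-inducible factor, which drives *Vegfa* transcription in low oxygen, and its intensity was 8230 at day 0, then 6472 and 5599 at 1 W, and 3555 at 2 W. Its log2 ratio was -0.26 for 1 W and -0.64 for 2 W (limma adjusted p = 0.362 and 0.0871). *Vhl*, whose product marks that subunit for degradation, had 685.1 at day 0, then 504.0 and 567.3 at 1 W, and 307.7 at 2 W, with a log2 ratio of -0.16 and -0.59 (limma adjusted p = 0.625 and 0.140). The following 3 genes were chosen after their values were seen. *Pgf* encodes placental growth factor, a ligand of VEGFR-1, and had an intensity of 347.0 at day 0, then 186.6 and 215.2 at 1 W, and 99.86 at 2 W. Its log2 ratio at 2 W was -1.23 (limma adjusted p = 0.0732). *Nrp2*, a co-receptor of VEGF-C, had 50.61 at day 0, then 115.9 and 80.42 at 1 W, and 100.6 at 2 W, with a log2 ratio of 1.13 for 1 W and 1.56 for 2 W (limma adjusted p = 0.215 and 0.0874). *Plxnd1*, a semaphorin receptor of endothelium, had 69.48 at day 0, then 127.4 and 91.98 at 1 W, and 143.3 at 2 W, with a log2 ratio of 0.83 and 1.61 (limma adjusted p = 0.256 and 0.0751).

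Of 9 angiogenesis inhibitors, 8 were measured and 7 tested, and limma called 0. Their median log2 ratio was 0.33 in replicate 1, 0.08 in replicate 2 and -0.15 at 2 W (0.12 at 2 W with division by the array median). Of the 8 inhibitors, 4 were above day 0 on all 3 arrays and 2 below, against 26.5% and 33.4% of all genes. In the values as deposited these counts of inhibitors were 3 and 3. The brightest were *Timp3*, a matrix-bound protease inhibitor that also blocks the binding of VEGF-A to VEGFR-2, and *Serpinf1*, which encodes pigment epithelium-derived factor. *Timp3* had an intensity of 3447 at day 0, then 1345 and 1768 at 1 W, and 774.3 at 2 W, lower on all 3 arrays after ECLE, with a log2 ratio of -0.97 for 1 W and -1.59 for 2 W (limma adjusted p = 0.184 and 0.0647). *Serpinf1* had 1941 at day 0, then 1762 and 1492 at 1 W, and 868.0 at 2 W, with a log2 ratio of -0.07 and -0.59 (limma adjusted p = 0.821 and 0.110).

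The genes with the pattern most like each tested member were found by the root mean square difference of log2 ratios over the 3 arrays after ECLE, among 10447 other tested genes. With 3 points a pattern is shared by many genes, and the values are a description. The nearest to *Vegfa* were *Atp2c1*, *Pja1* and *Rhot2* (0.05 to 0.06 log2 units), to *Vegfc* *Fahd1*, *Klf5* and *Lyn* (0.04 to 0.07), and to *Angpt2* *Lemd3*, *Ppip5k1* and *Cdk19* (0.02 to 0.04). The nearest to *Kdr* were *Thumpd3-as1*, *Slc4a2* and *Micu3* (0.03 to 0.04), to *Tek* *Ptafr*, *Bmp6* and *Zfp503* (0.04 to 0.06), to *Flt1* *Usp5*, *Fdps* and *Aktip* (0.02 to 0.06), and to *Nrp1* *Ppp1r14c*, *Plpp3* and *Il3ra* (0.05 to 0.07). *Vwf* had no such close neighbor. Its nearest were *Gem* (0.12), *Ptprb* (0.13) and *Cd200* (0.16), of which *Ptprb* encodes the endothelial phosphatase that acts on TIE2 and is among the endothelial genes above.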

How the data were processed

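Total RNA was labeled by the authors with the 3′ IVT PLUS kit, hybridized to a whole-genome rat expression array of Affymetrix and scanned, and Expression Console made the probe set values. The deposited value is a linear intensity per probe set. The sources used here give neither the summary algorithm nor a scaling target. The 57 control probe sets were left out. Each array was divided by its mean, in keeping with the per chip division that the methods name, log2 was taken, and the 18625 probe sets of 31042 whose mean level reached the 40th percentile were tested. The test was limma (version 3.58.1, R 4.3.3), fitted to 3 groups with lmFit, with a trend on intensity in eBayes, two-sided, with 1 residual and 3.12 prior degrees of freedom. The precision is limited by the 4 arrays, and the p-values measure only the spread between the 2 arrays at 1 W, which are labeled biological replicates. The code was tested on simulated data. Counts and summaries used Python 3.11.15 with pandas 2.3.3 and numpy 2.4.6, and matplotlib 3.10.9 drew the plots.

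Of the probe sets, 20826 had 1 platform symbol, 436 had several and 9780 had none here; 20758 symbols matched RefSeq GRCr8 and 0 were changed. A gene is its brightest probe set. Summed levels are over genes, on intensities scaled to the common mean of the 4 arrays. The members and gene lists were chosen with earlier results of these data known. Named are all probe sets of the members and, of each list, up to 3 genes in each direction called by limma. Otherwise those past 2.0-fold or 0.5-fold on each array and tested are named, otherwise the 2 brightest. Of the lists of other cell types sums and counts are given. Exceptions are *Tagln*, the only list gene that limma called, lens markers named as examples, and genes that limit how a list is read. Alternatives were median and quantile scaling, no scaling, a floor at the 20th percentile, the mean of all probe sets of a gene, no filter and a 60th percentile filter, limma without trend or robust, and leaving out each replicate at 1 W. No scan date was used, so that no batch was tested.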

Additional observations from a re-analysis of the deposited data

How the results depend on the processing

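Over 27 log2 ratios of members and their alternatives, 187 tested values kept direction and side of the threshold, 71 values without a test kept their direction, 14 reversed and 7 passed the threshold where the reported value did not. Of the counts of members, 33 were within 1.5 times and 8 were not. With division by the array median, limma called 1 member at 1 W and 1 at 2 W (*Nrp1*), and *Kdr* at 2 W over 1 W turned to 0.06. With quantile scaling *Kdr* and *Tek* at 2 W over 1 W turned to 0.13 and 0.01. In the values as deposited limma called 3 members at 2 W (*Vegfa*, *Kdr* and *Angpt2*) and 2 at 2 W over 1 W (*Angpt2* and *Nrp1*), 0 were over 2.0-fold and 1 was under 0.5-fold on each array (*Vegfa*), and ratios turned for *Vegfc* (-0.05) and *Tek* (-0.13) at 2 W and for *Vegfa* (-0.10), *Pecam1* (-0.09) and *Vwf* (-0.08) at 2 W over 1 W; the median of all tested probe sets was then -0.27 at 1 W and -0.83 at 2 W. With the floor, 0 were over 2.0-fold on each array. With the mean of all probe sets of a gene, *Flt1* at 1 W was -0.16 and *Kdr* 0.72 at 1 W and 0.66 at 2 W. Leaving out a replicate at 1 W, 1 to 2 genes were over 2.0-fold on each array left, and the log2 ratio of 2 W over 1 W was -0.31 without replicate 1 and 0.13 without replicate 2 for *Kdr*, 0.75 and -0.19 for *Pecam1*, and 0.85 and -0.26 for *Vwf*. The cause was not tested. Over all tested probe sets limma called 9, 9 and 0 (1 W and 2 W over day 0, and 2 W over 1 W), against 406, 1631 and 209 with median scaling, 250, 7974 and 4421 as deposited, 8, 0 and 0 with quantile scaling, 9, 5 and 0 with the floor, 5, 0 and 0 with gene means, 9, 6 and 0 without the filter, 9, 5 and 0 with the 60th percentile filter, 9, 11 and 0 with robust limma and 0, 0 and 0 without the trend. Without a replicate at 1 W no residual degree of freedom was left and no test was run. For 4 of the 14 probe sets the signal was too dim for a test. No paired analysis was possible because the labels number the replicates of 1 W only.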

Other observations

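Of 11 symbols of other angiogenic ligands (FGF and PDGF family genes, *Hgf*, *Ccn1* and *Ccn2*, with 2 older symbols of the last pair), 8 were measured and 5 tested, and limma called 0. Of the 8, 4 were above day 0 on all 3 arrays and 0 below, against 26.5% and 33.4% of all genes. In the values as deposited 2 were above and 0 below. The median log2 ratio was 0.94 and 0.88 on the arrays of 1 W replicates 1 and 2 and 0.35 at 2 W (-0.22 at 2 W in the values as deposited). *Ccn1*, which encodes a matricellular protein that promotes vessel growth, had an intensity of 25.60 at day 0, then 491.5 and 142.2 at 1 W, and 98.59 at 2 W, over 2.0-fold on each array (limma log2 ratio 3.56 at 1 W and 2.51 at 2 W, adjusted p = 0.174 and 0.155). The replicates at 1 W were far apart, and both lay above day 0 and 2 W.

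Of 5 lymphatic endothelial genes, all were measured and 3 tested, limma called 0, and the median log2 ratio was 0.39 and -0.07 at 1 W and 0.75 at 2 W. Among them was *Prox1*, also a lens epithelium marker here, with an intensity of 2955 at day 0, then 3028 and 2420 at 1 W, and 2418 at 2 W. Its log2 ratio in 1 W replicate 2 was the median of -0.07. *Pdpn*, podoplanin, a glycoprotein of lymphatic endothelium and of many other cells, was over 2.0-fold on each array, with an intensity of 235.9 at day 0, then 643.2 and 449.6 at 1 W, and 446.0 at 2 W (limma log2 ratio 1.38 and 1.49, adjusted p = 0.146 and 0.0729). *Lyve1*, a lymphatic and macrophage receptor chosen after its values were seen, had 44.65 at day 0, then 77.23 and 29.54 at 1 W, and 88.24 at 2 W, with replicates on either side of day 0.

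Of 14 symbols of hypoxia targets (1 of them an older symbol of *Ero1a*), 13 were measured and 12 tested, limma called 0, and the median log2 ratio was 0.01 and -0.29 at 1 W and -0.14 at 2 W (0.13 at 2 W with division by the array median). *Slc2a1*, the glucose transporter GLUT1, had an intensity of 7375 at day 0, then 5432 and 5321 at 1 W, and 2922 at 2 W (limma log2 ratio -0.26 at 1 W and -0.77 at 2 W, adjusted p = 0.311 and 0.0647). *Pgk1*, a glycolytic enzyme, had 7639, 7090, 5331 and 8492 on the same arrays (-0.12 and 0.72, limma adjusted p = 0.750 and 0.122). *Ndrg1*, a stress response gene chosen after its values were seen, had 833.2 at day 0, then 1043 and 718.9 at 1 W, and 6481 at 2 W, with a log2 ratio of 3.53 at 2 W (limma adjusted p = 0.0553). *Adm*, which encodes the vasodilator adrenomedullin and was also chosen after its values were seen, was too dim in its mean level over the arrays to be tested, with 0.5823 at day 0, then 28.84 and 17.04 at 1 W, and 13.98 at 2 W.

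Of 12 genes of other retinal cells, 11 were measured and 9 tested, with a median log2 ratio of -0.38 and 0.29 at 1 W and -0.25 at 2 W.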
